A study of Mus musculus with 12 samples.

Results

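The tubulin genes examined were 10 members of the tubulin family, chosen by name and present in both deposited tables: the beta-tubulins Tubb3, Tubb2a, Tubb2b, Tubb5 and Tubb6, the alpha-tubulins Tuba1a, Tuba1b, Tuba1c and Tuba4a, and the gamma-tubulin Tubg1. They are 10 of the 38720 genes listed, picked as a gene family with earlier results of these data known. RNA was sequenced from retinas of C57/BL6 mouse pups at P0, the day of birth. In mKO pups a Math5-Cre knock-in deletes the SET-domain exons of floxed Ezh2 in cells that have expressed Math5, a transcription factor of early retinal neurons, and the controls are labelled WT, although the study describes its littermate controls elsewhere as floxed without Cre. The study cites Cre in only part of the RGCs of this line, and some mKO RGCs kept the histone mark made by Ezh2. As only mKO pups carry the knock-in, its effects and those of Ezh2 loss cannot be told apart. Dissociated retinal cells were split with beads against CD90, the product of Thy1, into captured cells (RGCs, retinal ganglion cells) and the cells left over (non-RGCs). Each of the 4 groups, mKO RGC, WT RGC, mKO non-RGC and WT non-RGC, had 3 libraries from separate RNA extractions, and nothing ties an extraction to 1 litter or animal, so the p-values measure the spread between extractions. Between 7139633 and 13014004 reads fell on genes in a library. The deposited values were group means, from which the reads of each library were recovered exactly, and the libraries of a group are called A, B and C in order of falling depth because the values carry no replicate numbers.

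Alpha- and beta-tubulin form the dimer from which microtubules are built, and gamma-tubulin sits in the ring complex that starts new microtubules. Isotypes of one family differ mostly at the end of the protein, which projects from the microtubule surface and carries modifications such as glutamylation and removal of the last residue. Tubb3 encodes class III beta-tubulin, a widely used marker of neurons and, in the retina, of RGCs, whose axons are packed with microtubules. Tuba1a is the main alpha-tubulin of developing neurons, Tubb2a and Tubb2b are neuronal class II isotypes, Tubb5 is made by most cells, and Tubb6 is commonest outside neurons. Cells also adjust tubulin mRNA to the amount of free tubulin through TTC5, which binds the first residues of alpha- and beta-tubulin as they leave the ribosome.

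The ends of the coding parts of 4 beta-tubulins are shown because they are where the isotypes differ and because they bear on which reads could be told apart. They were read from GENCODE M21 transcripts (GRCm38), 5′ to 3′ and up to the base before the stop codon, with the first printed base at coding position 1276. Capitals mark bases that differ from Tubb2a in a gapped pairwise alignment, or that have no partner there.
Tubb2a: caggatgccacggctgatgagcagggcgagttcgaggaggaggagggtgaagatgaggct
Tubb2b: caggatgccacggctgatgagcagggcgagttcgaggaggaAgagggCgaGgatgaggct
Tubb5: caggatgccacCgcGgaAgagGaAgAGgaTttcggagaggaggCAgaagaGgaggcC
Tubb3: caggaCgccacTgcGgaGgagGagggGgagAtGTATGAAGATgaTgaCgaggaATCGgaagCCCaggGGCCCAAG

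Tubb3 carried 34 such bases against Tubb2a over its 75-base end, Tubb5 carried 12 and Tubb2b carried 3. The starts, which encode the residues that TTC5 reads, were alike within a family. Tubg1, which is outside that control, is shown for contrast.
Tubb3: atgagggagatc
Tubb5: atgagggaaatc
Tuba1a: atgcgtgagtgc
Tubg1: atgccgagagaa

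The first 12 coding bases of Tuba1a, Tuba1b and Tuba1c were identical. Over the whole coding part Tuba1a was 98.3% identical to Tuba1b and 97.1% to Tuba1c, Tubb2a was 96.5% identical to Tubb2b, and Tubb3 was 81.3% identical to Tubb5. Of all 75-base windows of the main transcript, the length of the reads, another gene held 70.4% for Tuba1a, 78.3% for Tuba1b, 56.7% for Tuba1c, 43.2% for Tubb2a and 32.2% for Tubb2b. The figure was 47.2% for Tuba4a, all of it in an overlap with its neighbour Stk16, 7.64% for Tubg1, shared with Tubg2, and 0% for Tubb3, Tubb5 and Tubb6. Reads of the 3 Tuba1 genes, and of Tubb2a and Tubb2b, can therefore have been lost or exchanged among them, while those of Tubb3, Tubb5 and Tubb6 had no such copy. Tuba1b (chr15:98931425-98934565, minus strand), Tuba1a (chr15:98949837-98953703, minus strand) and Tuba1c (chr15:99029891-99038110, plus strand) lie next to each other, as do Tubb2a (chr13:34074274-34078007) and Tubb2b (chr13:34126748-34130466) on the minus strand. Tubb3 lies at chr8:123411424-123422015 on the plus strand and Tubb5 at chr17:35833921-35838306 on the minus strand, all in GRCm38.

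RGC markers were higher in the captured cells for 11 of 11 genes in both genotypes, and microglial markers for 5 of 5. The whole-gene reads of Ezh2 were not called between the genotypes (log2 difference 0.09 ± 0.13 SE in RGCs, adjusted p = 0.637, and 0.13 ± 0.15 in non-RGCs, adjusted p = 0.584), and the deleted exons could not be counted apart, so Ezh2 gives no check of the labels. Without WT RGC library C, Ezh2 was called higher in mKO RGCs (0.25, adjusted p = 0.00419). Thy1, the capture antigen, was lower in mKO RGCs (log2 -0.73 ± 0.06, adjusted p = 0.000651) and higher in mKO non-RGCs (3.86 ± 0.46, adjusted p = 0.0048), where RGC markers summed to 5115 to 6501 scaled reads against 3793 to 3989 in WT. Blood markers (4 of 4) and pigment epithelium markers (3 of 3 tested) were higher, and kidney genes (3 of 3) lower, in the mKO of both cell fractions. WT RGC library C had the lowest RGC marker sum of its group, 27316 against 30381 and 31422, and the highest progenitor sum, 12385 against 8015 and 8104. Whether these marker differences had a part in the tubulin values was not tested.

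The level of each member was put on 1 scale over the 12 libraries by median-of-ratios size factors and, to compare genes, divided by exon length. Exon length includes bases shared with other genes, so the order depends on this choice, and the order per unshared window was not computed. Without the division Tubb5, at a mean of 4006 scaled reads, stood above Tubb3, at 3075, in WT RGCs. In WT RGCs Tubb3 stood first at 1646 ± 62.6 scaled reads per kilobase (SD, n = 3), followed by Tubb5 at 1204 ± 57.1 and Tubb2a at 984 ± 28.9, with no overlap between the libraries of one and the next. Tubb2b at 789 ± 31.9 and Tuba1a at 746 ± 37.8 overlapped in their ranges over libraries, although Tubb2b was the higher within each library. Tubg1 followed at 389 ± 42.8. Tubb6 at 211 ± 63.4 and Tuba1b at 208 ± 22.1 overlapped and changed places between libraries, as did Tuba4a at 89.1 ± 20.4 and Tuba1c at 65.5 ± 27.6. The order in mKO RGCs was the same, from Tubb3 at 1034 ± 21.5 to Tuba1c at 44.0 ± 11.4, and there Tubb6 and Tuba1b were the only neighbours whose ranges overlapped.

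In the cells left over, Tubb3 was not first. In WT non-RGCs Tubb5 at 1194 ± 152 and Tubb3 at 1125 ± 103 scaled reads per kilobase overlapped in their ranges, with Tubb5 the higher within each library, Tuba1a followed at 662 ± 57.3, and Tuba4a was last at 15.4 ± 8.09. The range of Tubb2a, at 490 ± 59.96, overlapped with those of Tubb2b at 551 ± 35.5 and Tubg1 at 483 ± 26.3. In mKO non-RGCs the ranges of 2 of 9 neighbouring pairs were apart, while 8 of 9 kept their order within every library, the exception being Tubb2a and Tubg1. Tubb5 stood there at 974 ± 275 and Tubb3 at 798 ± 198, with wider spreads than in the other 3 groups.

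**Figure D1:**
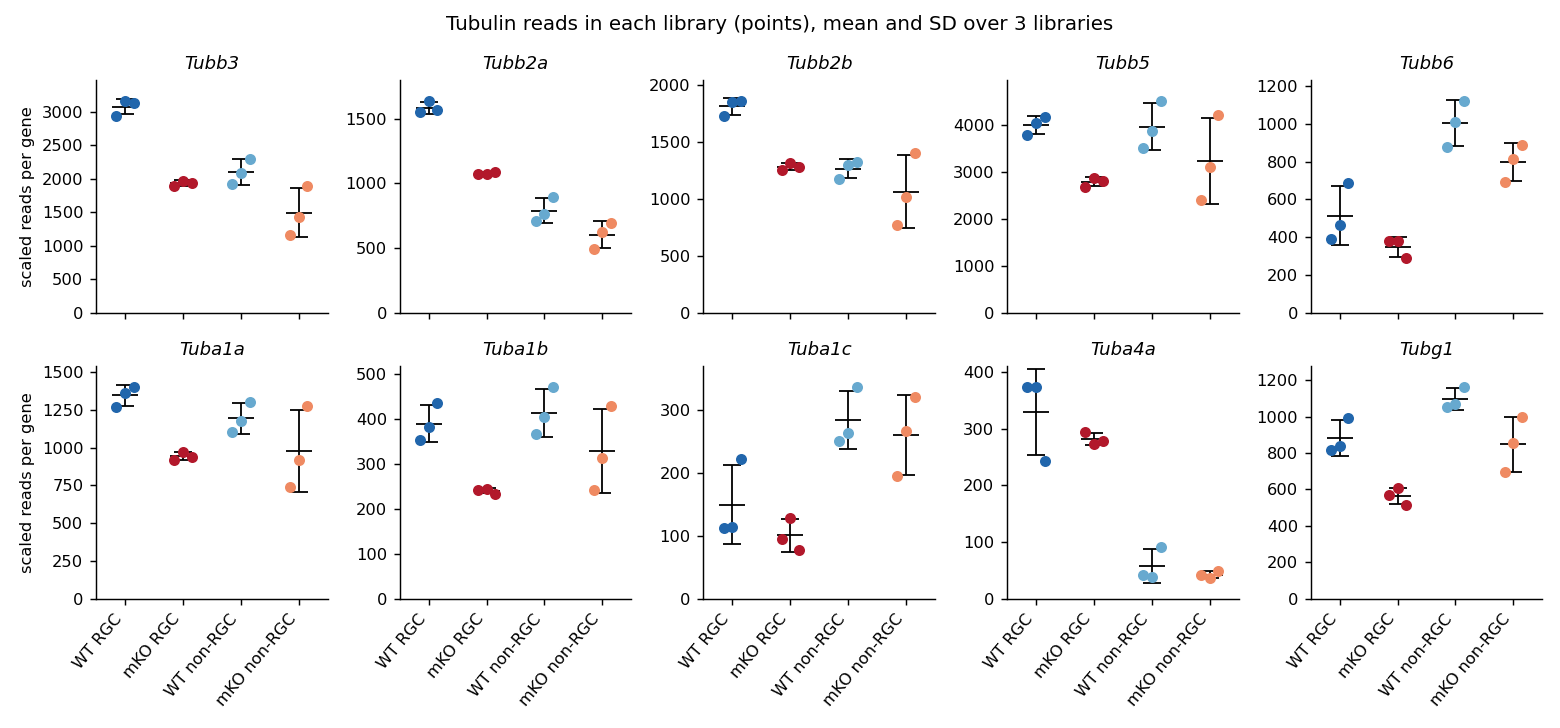
Scaled reads of each tubulin gene (y axis, reads per gene on 1 scale over 12 libraries, starting at 0) in the 4 groups on the x axis, with 1 point per library, a line at the mean and bars of 1 SD over 3 libraries. The mKO RGC points of Tubb3, between 1889 and 1969, lie below the WT RGC points, between 2941 and 3159, and the mKO non-RGC points are the most spread of the 4 groups for Tubb5.

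The main comparison of the study asked what loss of Ezh2 changed in RGCs. Of the 10 tubulin genes, 7 were lower in mKO RGCs than in WT RGCs and none was higher, where 21.2% of all 16085 genes tested were called lower and 37.5% called in either direction. The 7 were Tubb3, Tubb2a, Tubb2b, Tubb5, Tuba1a, Tuba1b and Tubg1, which span all 3 families, and the fall lay between 29.8% for Tubb2b and 38.6% for Tuba1b. All 10 fold changes were negative, with a median log2 value of -0.54 beside -0.00 over all genes. As these are bulk libraries, fewer cells of a type and less RNA per cell cannot be told apart. RGC markers summed to 21179 to 21883 scaled reads in mKO RGCs and to 27316 to 31422 in WT RGCs, with 9 of 11 called lower, and progenitor markers to 6166 to 6806 and 8015 to 12385, with 3 of 7 called lower, and the part of either in the tubulin difference was not tested.

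Tubb3, the neuronal class III isotype, had 2195, 2185 and 2125 reads in the mKO RGC libraries and 2959, 2948 and 2849 in the WT RGC libraries. The groups did not overlap, although the mKO libraries, with 12391602 to 13014004 reads, were deeper than the WT libraries, with 10600964 to 12328717. After the authors' scaling the means were 1977 ± 53.6 and 3175 ± 164 (SD, n = 3), a log2 difference of -0.68 ± 0.06 (SE, 95% interval -0.82 to -0.55, limma adjusted p = 0.000651), or 37.7% lower. The study's own RNA-seq comparison also listed Tubb3 as lower in mKO RGCs, past its cut-offs for fold and p. By RT-PCR, a different measure, the study reported no significant difference in Tubb3 between RGCs purified from mKO and littermate control pups. The study's text and figure legend give different ages for the pups of this RT-PCR, so their age may differ from that of the libraries.

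The class II isotypes moved in the same direction. Tubb2a had 1246, 1193 and 1196 reads in mKO RGCs and 1560, 1528 and 1427 in WT RGCs, a log2 difference after scaling of -0.57 ± 0.05 (adjusted p = 0.000657). Tubb2b had 1452, 1458 and 1405 against 1736, 1723 and 1694 reads, a log2 difference of -0.51 ± 0.06 (adjusted p = 0.00122). For Tubb5, the broadly expressed isotype, the reads were 3117, 3192 and 3083 against 3820, 3782 and 3801, and the log2 difference was -0.53 ± 0.07 (adjusted p = 0.00143). For these 3 genes every mKO library held fewer reads than any WT library, before and after scaling.

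Among the alpha-tubulins, Tuba1a had 1069, 1076 and 1031 reads in mKO RGCs and 1277, 1273 and 1278 in WT RGCs (log2 -0.52 ± 0.07, adjusted p = 0.00161). Tuba1b had 281, 272 and 257 against 356, 356 and 397 reads (log2 -0.70 ± 0.11, adjusted p = 0.00337). Tubg1, the gamma-tubulin, had 665, 672 and 565 against 820, 782 and 906 reads (log2 -0.65 ± 0.11, adjusted p = 0.00427). None of these 3 overlapped between the groups. After scaling, every mKO RGC library lay below every WT RGC library for 8 of the 10 members, beside 28.2% of all genes tested. In raw reads this held for 7 of the 10, and the share over all genes was not computed for raw reads. By the study's thresholds, an unadjusted p under 0.05 with a fold of at least 1.5, only Tubb3, Tuba1b and Tubg1 passed, 3 of 10 beside 16.3% of all genes.

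Tubb6, Tuba1c and Tuba4a were not called, and for each of them 1 WT library stood apart. Tubb6 had 394, 432 and 627 reads in WT RGC libraries A, B and C and 441, 420 and 315 in mKO RGCs (log2 -0.54 ± 0.23, 95% interval -1.08 to -0.01, adjusted p = 0.102). Tuba1c had 114, 106 and 203 against 111, 143 and 85 reads (log2 -0.54 ± 0.32, interval -1.30 to 0.23, adjusted p = 0.232). Tuba4a had 376, 348 and 221 against 342, 302 and 306 reads (log2 -0.21 ± 0.16, interval -0.59 to 0.17, adjusted p = 0.335). WT library C was high for Tubb6 and Tuba1c, which were lower in RGCs than in the other cells, and low for Tuba4a, which was higher. It also had the lowest RGC marker sum of its group, and whether this had a part in the values was not tested. Without WT library C Tuba4a was called lower (log2 -0.40, adjusted p = 0.00306). Tubb6 then stood at -0.29 and Tuba1c at -0.19, neither called. The other 7 calls held, where 27.6% of all genes were then called lower.

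GC content and reads per base were compared with the fold changes of all genes. Over 10 equal bins of genes by exonic GC content, the median log2 difference between mKO and WT RGCs ran from 0.44 in the lowest to -0.52 in the highest bin, and the members, at 51.9% to 57.9% GC, all lay in bins 7 to 10. Over 10 bins by reads per exon base it ran from 0.18 to -0.44, and Tubb3, Tubb2a, Tubb2b, Tubb5 and Tuba1a lay in the highest bin, while Tuba1b lay in bin 6. With each library's GC trend removed, 5 of the 10 were still called lower, Tubb2b at -0.33, Tubb5 at -0.35, Tuba1a at -0.28, Tubb3 at -0.25 and Tubb2a at -0.24 (adjusted p from 0.0123 to 0.0293), beside 9.41% of all genes called lower. Tuba1b (-0.37, adjusted p = 0.0506) and Tubg1 (-0.30, adjusted p = 0.0789) then missed the threshold. With the trends of both GC and reads per base removed, none of the 10 was called in limma (2 at an unadjusted p under 0.05), beside 8.34% of all genes in either direction, and 1 of them, Tubb3, stood at 0.04 ± 0.05 (interval -0.07 to 0.15), while Tuba1b kept -0.39 (adjusted p = 0.0597). Reads per base is itself the expression level, so this second removal also takes out any change that highly expressed genes share. It was taken over all exon bases, although 78.3% of the Tuba1b windows are shared with other genes. The coverage of Tuba1b can thus be understated in both its bin and this removal. What part either property had in the fall was not tested.

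**Figure D2:**
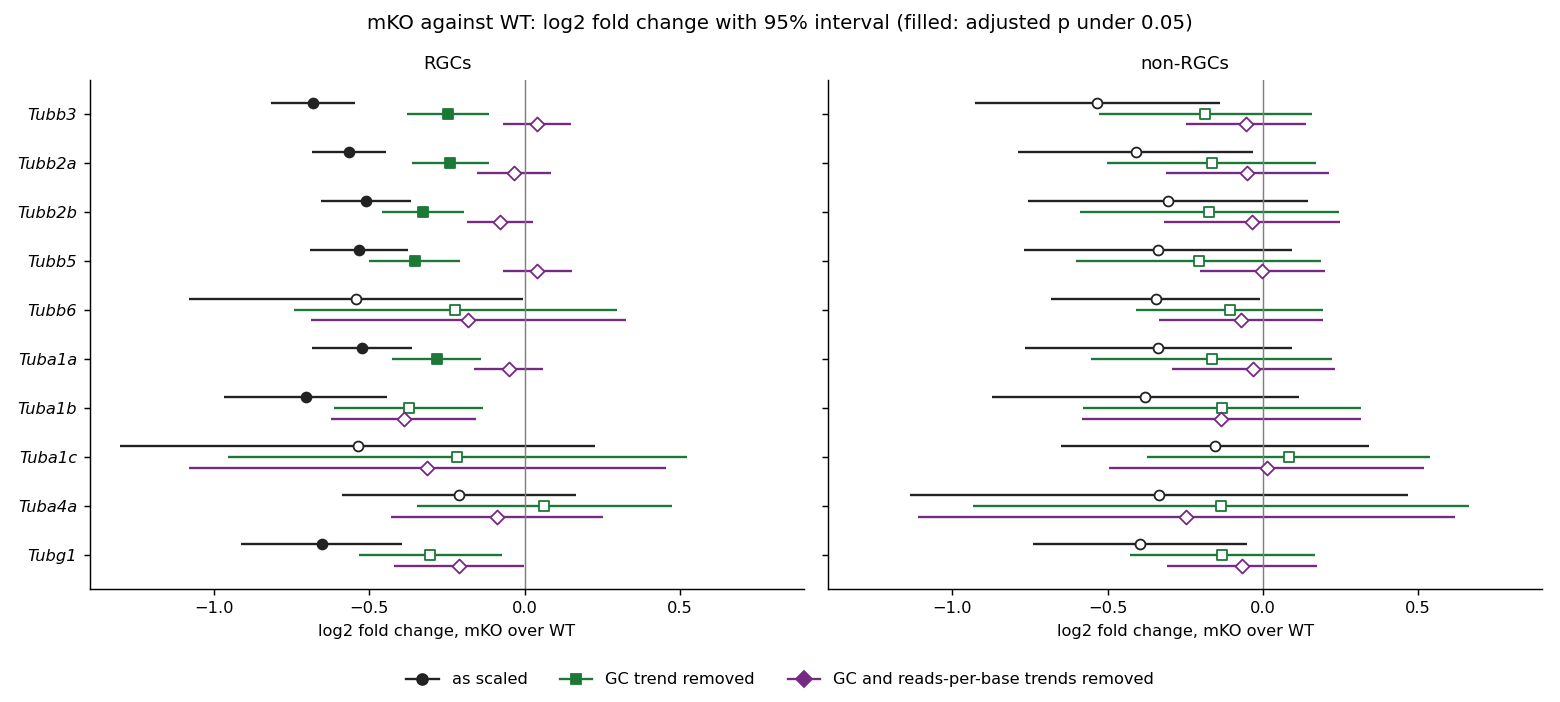
Log2 fold change of mKO over WT (x axis) for the 10 tubulin genes (y axis) in RGCs (left) and non-RGCs (right), with 95% intervals of the limma fit, as scaled (circles), with the GC trend removed (squares) and with GC and reads-per-base trends removed (diamonds), filled where the adjusted p is under 0.05. In RGCs 7 circles, 5 squares and no diamonds are filled, and in non-RGCs no symbol is filled.

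Duplicate reads had been removed before counting, which for single-end reads leaves few distinct reads per position, and 5 of the 10 members lay in the highest bin by reads per base. Tubb3 had 1.53 to 1.58 reads per exon base in WT RGCs, 1.14 to 1.18 in mKO RGCs, 1.122 to 1.142 in WT non-RGCs and 0.701 to 0.773 in mKO non-RGCs. How the members followed depth could be read within mKO non-RGCs, where library C held 55.7% of the reads of library A. Tubb2b kept 101.8% of its reads, Tubb5 97.9%, Tuba1b 98.3%, Tuba1a 96.1%, Tuba1c 92.1% and Tubb3 90.8%, whereas the median gene kept 41.6% in the lowest and 72.8% in the highest of 10 bins by reads per base. Tubg1 at 79.8%, Tubb2a at 79.3%, Tubb6 at 71.7% and Tuba4a at 66.7% kept less. By mean reads per base over mKO and WT non-RGCs, Tuba1b lay in bin 7 and Tuba1c in bin 5, while Tubb2a and Tubg1 lay in the highest. The bins divide by all exon bases, although another gene held 78.3% of the windows of Tuba1b and 56.7% of those of Tuba1c. Their bins can therefore be too low, and whether the share kept followed reads per base was not tested. Dividing by size factors then raised the shallow library above the deep one for all 10 members, for example from 1160 to 1889 scaled reads for Tubb3, and whether the 2 libraries also differed in their cells was not tested.

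**Figure D3:**
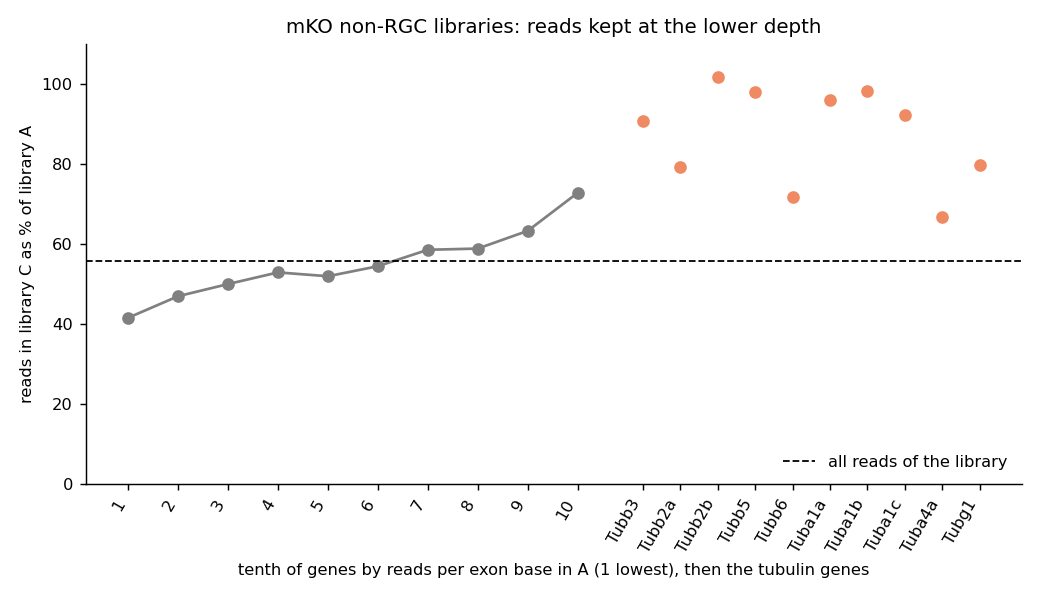
Reads in mKO non-RGC library C as a percentage of those in library A (y axis), as the median of genes in each of 10 bins by reads per exon base (x axis, 1 lowest) and then for each tubulin gene, with a dashed line at the ratio of all reads, 55.7%. The medians run from 41.6% to 72.8%, and 6 of the 10 tubulin genes lie above 90%.

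In non-RGCs none of the 10 was called between mKO and WT, where 10.6% of 15326 genes tested were called. All 10 differences were negative, with a median log2 value of -0.34 beside -0.03 over all genes, and 4 had an unadjusted p under 0.05 in limma, beside 29.9% of all genes, while limma-voom on the reads also called 0. Tubb3 had 1441, 1444 and 1309 reads in mKO and 2096, 2120 and 2134 in WT, and scaled means of 1448 ± 373 and 2056 ± 167. The scaled groups did not overlap, yet the log2 difference of -0.53 ± 0.18 had an adjusted p of 0.0792.

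Tubg1 (log2 -0.40, adjusted p = 0.122), Tubb2a (-0.41, adjusted p = 0.141) and Tubb6 (-0.35, adjusted p = 0.156) were the others with an unadjusted p under 0.05. Tubb3, Tubb2a and Tubg1 were the 3 of 10 with every mKO library below every WT library, beside 19.2% of all genes tested. The remaining log2 differences lay between -0.38 for Tuba1b and -0.15 for Tuba1c. Without mKO non-RGC library C, the shallow one, 3 members were called lower, Tubb3 at -0.73 (adjusted p = 0.0244), Tuba1a at -0.55 (adjusted p = 0.0464) and Tubg1 at -0.53 (adjusted p = 0.0454), beside 7.35% of all genes called lower.

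A call in RGCs and none in non-RGCs does not show that the effect differed, so the difference was tested in 1 fit of all 12 libraries. It was called for 0 of 10 members, beside 0.097% of 16502 genes, and 0 of 10 had an unadjusted p under 0.05, beside 9.08% (limma-voom also called 0). The estimates ran from -0.38 for Tuba1c to 0.12 for Tuba4a on the log2 scale. For Tubb3 it was -0.15 ± 0.20, with an interval of -0.58 to 0.28, and a p above the threshold does not show that the effects were alike.

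The fractions were compared next. In WT, 4 of the 10 genes were higher in RGCs than in non-RGCs and 2 were lower. Of 15742 genes tested 50.8% were called, 27.2% higher and 23.7% lower, so the members' counts were near the shares over all genes. The widest gap was that of Tuba4a, an alpha-tubulin of mature neurons and of muscle. It had 373.7, 372.9 and 242.3 scaled reads in WT RGCs and 41.1, 38.4 and 91.6 in WT non-RGCs. It was 6.05-fold higher (log2 2.60 ± 0.29, adjusted p = 1.22e-05), with no overlap.

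Tubb2a had 1551, 1637 and 1565 scaled reads in WT RGCs and 709, 761 and 896 in WT non-RGCs, 2.02-fold higher (log2 1.01 ± 0.12, adjusted p = 2.58e-05). Tubb3, the RGC marker, was higher by less, 1.47-fold (log2 0.55 ± 0.14, adjusted p = 0.00505), from 2941, 3159 and 3124 against 1916, 2090 and 2299 scaled reads. Tubb2b was 1.43-fold higher (log2 0.52 ± 0.16, adjusted p = 0.016), although without WT non-RGC library A this call was lost. In none of these 4 did the groups overlap, beside 30.2% of all genes with every RGC library above. Between the same libraries the 11 RGC markers had log2 differences from 1.47 to 8.68, with a median of 3.63. The highest was that of Thy1, the capture antigen itself. Tubb3 had 1.53 to 1.58 reads per exon base in WT RGCs, where the loss of duplicate reads can limit its value. The part of this in its fold change was not tested.

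Tubb6 and Tuba1c were lower in WT RGCs. Tubb6 had 391.6, 462.9 and 687.6 scaled reads in RGCs and 878.5, 1011 and 1121 in non-RGCs (log2 -0.998 ± 0.19, adjusted p = 0.000819). Tuba1c had 113.3, 113.6 and 222.6 against 251.4, 264.2 and 337.2 (log2 -0.98 ± 0.28, adjusted p = 0.011), and this call was lost when WT RGC library A or B was left out. With Tubg1, 3 members had every WT RGC library below every non-RGC library, beside 28.7% of all genes. The other 4 were not called, Tubb5 at 0.02 ± 0.16 (interval -0.32 to 0.36), Tuba1a at 0.17, Tuba1b at -0.08 and Tubg1 at -0.32 (adjusted p = 0.0599). Tubg1 was called without WT RGC library C (-0.40, adjusted p = 0.0274), and also when mKO non-RGC library A or C, which share the fit, was left out. With the GC trend, or the GC and reads-per-base trends, removed, the same 4 were higher and Tubg1 joined the lower genes.

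In mKO, 3 were higher in RGCs and 3 lower. Of 16330 genes tested 55.0% were called, 29.2% higher and 25.8% lower, again near the members' counts. Tuba4a was 6.59-fold higher (log2 2.72, adjusted p = 7.94e-06), Tubb2a 1.81-fold (0.85, adjusted p = 0.000102) and Tubb3 1.32-fold (0.40, adjusted p = 0.0264), the last lost when any of 5 single libraries was left out or when total reads set the scale. Tuba1c (-1.37, adjusted p = 0.00131), Tubb6 (-1.20, adjusted p = 0.000205) and Tubg1 (-0.58, adjusted p = 0.00252) were lower. Tubb2b stood at 0.31 (adjusted p = 0.112), Tuba1b at -0.41 (adjusted p = 0.0709), Tubb5 at -0.18 and Tuba1a at -0.01. Without mKO non-RGC library A, Tubb5 (-0.38) and Tuba1b (-0.61) were called lower, and without library C Tubb2b (0.54) was called higher.

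**Figure D4:**
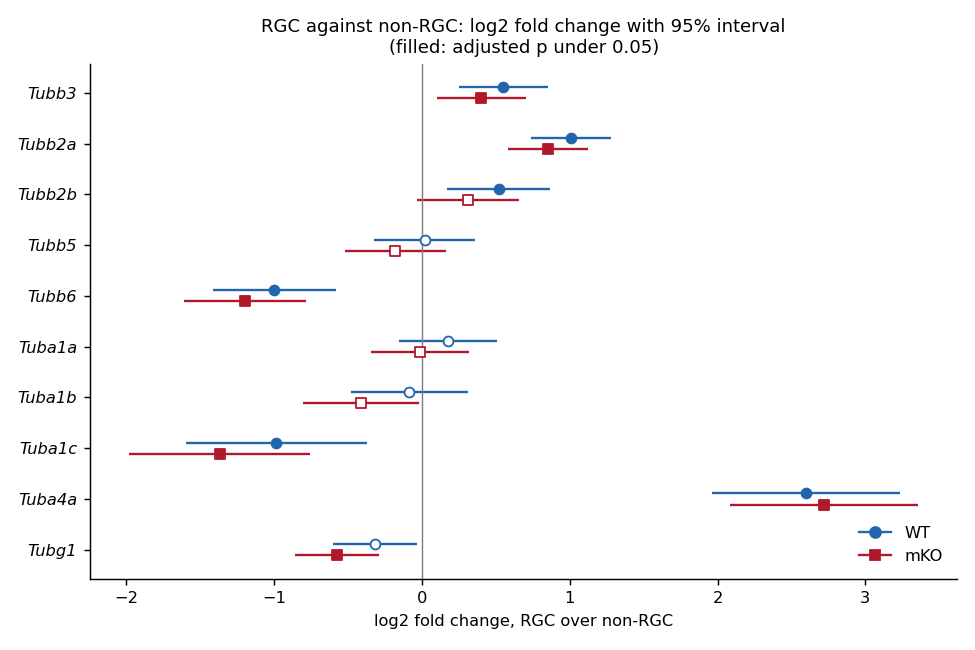
Log2 fold change of RGC over non-RGC (x axis) for the 10 tubulin genes (y axis) in WT (circles) and mKO (squares), with 95% intervals of the limma fit and filled symbols at an adjusted p under 0.05. Tuba4a lies farthest right, at 2.60 and 2.72, and Tubb6 and Tuba1c lie left of 0 in both genotypes.

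The make-up of the tubulin mRNA needs no scale between libraries, since each isotype is a share of the reads per kilobase of its family within 1 library. Shares can still vary with depth. From mKO non-RGC library A to the shallower library C, Tubb5 went from 24.6% to 27.1% and Tubb4a from 12.4% to 10.6%. Tubb3 went from 21.2% to 21.6%, and the part of depth in these shares was not tested. Tubb3 made up 24.2% ± 0.268 of beta-tubulin in WT RGCs and 23.0% ± 0.131 in mKO RGCs (SD, n = 3). It made up 22.5% ± 0.701 in WT non-RGCs and 21.1% ± 0.561 in mKO non-RGCs. The mean share in RGCs fell by 1.18 percentage points in mKO. The whole beta-tubulin pool of RGCs, given without a test, held 6814 ± 237 scaled reads per kilobase in WT and 4501 ± 90.8 in mKO. In both fractions the mKO and WT shares of Tubb3 did not overlap (exact permutation test, two-sided, p = 0.1, the smallest that 3 against 3 libraries allow, so that p under 0.05 was out of reach).

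Between the fractions other beta-tubulins were further apart in share. Tubb5 made up 17.7% in WT RGCs and 23.9% in WT non-RGCs, and Tubb6 made up 3.08% and 8.23%. Tubb4a, a neuronal isotype outside the 10, made up 22.5% and 13.2%. The alpha-tubulin pool was mostly Tuba1a in all groups, from 63.5% in mKO non-RGCs to 66.2% in mKO RGCs. Tuba4a made up 7.96% of it in WT RGCs and 9.64% in mKO RGCs but 1.45% and 1.38% in the non-RGCs, and Tuba1c moved the other way, 5.74% and 5.54% against 11.96% and 13.5%. The shares of Tuba1a, Tuba1b and Tuba1c rest on reads that these genes could exchange.

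**Figure D5:**
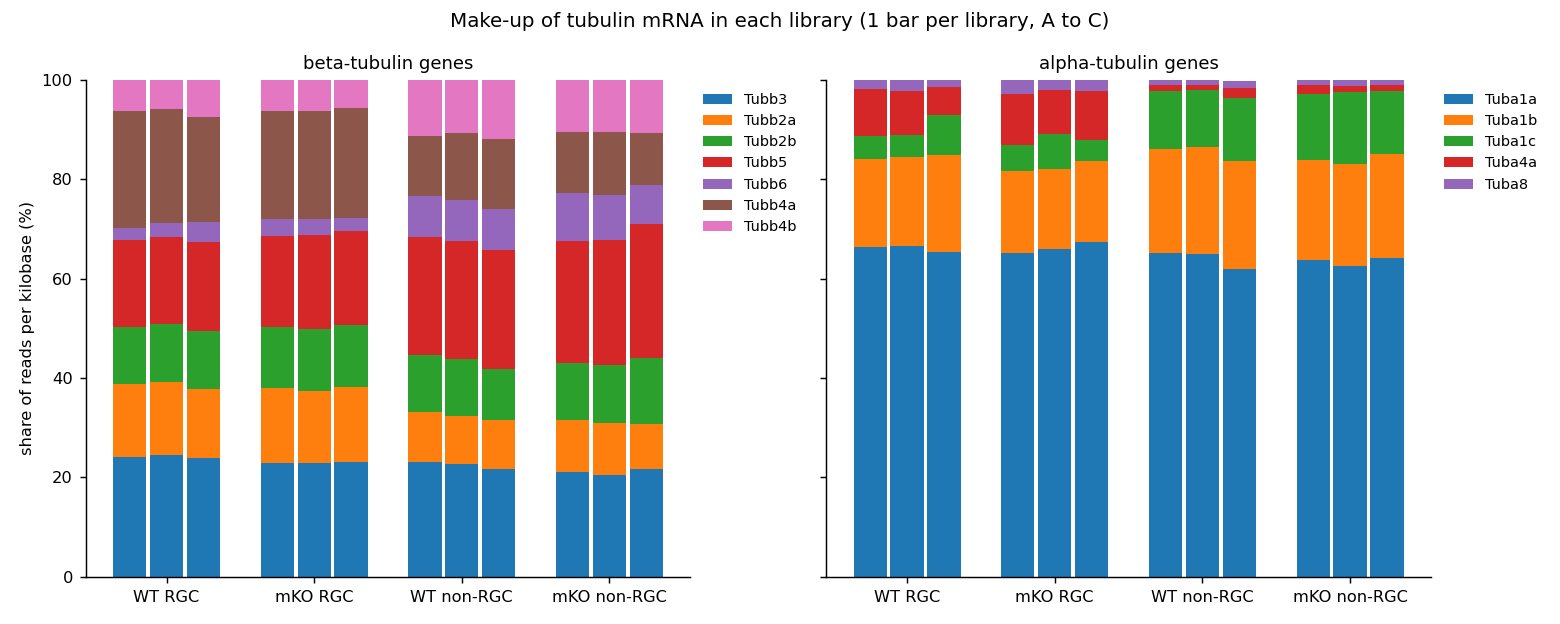
Share of each beta-tubulin (left) and alpha-tubulin gene (right) in the reads per kilobase of its family (y axis, %), with 1 stacked bar per library, 3 libraries for each of the 4 groups on the x axis. Genes with very small shares in all groups are not drawn. Tubb3 takes 21.1% to 24.2% of the bars of a group on average, while Tubb6 and Tuba1c are wider and Tubb4a and Tuba4a narrower in the non-RGC bars.

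Of the 10 other tubulin genes listed, 6 had enough reads to test. In mKO RGCs 3 of the 6 were lower and none higher, where 21.2% of all genes tested were called lower. Tubb4a had log2 -0.66 ± 0.05 (adjusted p = 0.000644), Tubb4b, a broadly made isotype, -0.71 ± 0.12 (adjusted p = 0.00412), and Tubg2, the second gamma-tubulin, -0.33 ± 0.10 (adjusted p = 0.0396). The call of Tubg2 was lost when any library but WT RGC C was left out (adjusted p up to 0.127). Tuba8, Tubd1 and Tube1 stood at -0.13, 0.38 and 0.28 without a call, and without WT RGC library C Tubd1 (0.54) and Tube1 (0.41) were called higher. In non-RGCs 0 of the 6 were called, beside 10.6% of all genes. An unadjusted p was under 0.05 for 3 in limma, beside 29.9% of all genes, with 0 calls by limma-voom. Without mKO non-RGC library C Tubb4b was called (-0.72, adjusted p = 0.0396). Between the WT fractions Tubg2 (1.87), Tubb4a (1.22) and Tuba8 (0.78) were higher in RGCs and Tube1 (-0.57) lower. The call of Tuba8 was lost when WT RGC library A or B, WT non-RGC library A or B or mKO RGC library B or C was left out (adjusted p up to 0.151).

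Genes of tubulin folding were examined next, beside all genes, of which 21.2% were called lower in mKO RGCs and 37.5% in either direction. Of the 8 subunits of the chaperonin CCT, which folds alpha- and beta-tubulin, 8 were called lower in mKO RGCs, with a median log2 difference of -0.34 and Cct7 at -0.48 ± 0.05 (adjusted p = 0.000938), Cct5 at -0.44, Cct6a at -0.42 and Cct3 at -0.36. Of 5 prefoldin subunits, which hand tubulin to the chaperonin, 2 were lower in mKO RGCs, Pfdn5 at -0.34 and Pfdn1 at -0.29, the latter call being lost when any library but WT RGC C was left out (adjusted p up to 0.106). Of 7 cofactors of dimer assembly, Tbcb (-0.46) and Arl2 (-0.40) were lower and Tbcel (0.34) was higher. With the GC trend removed, 8 CCT subunits, 1 prefoldin subunit and 1 cofactor were called lower, beside 9.41% of all genes. With both trends removed 4, 0 and 0 were called lower, beside 8.34% of all genes called in either direction. In non-RGCs none of these 20 genes was called by limma or limma-voom, where limma called 10.6% of all genes tested. An unadjusted limma p was under 0.05 for 0 of the CCT subunits, 1 of the prefoldin subunits and 2 of the cofactors, beside 29.9% of all genes.

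The 4 stathmins, which bind free tubulin dimers, were all lower in mKO RGCs, where 21.2% of all genes were called lower. Stmn3 stood at -0.75 ± 0.05 (adjusted p = 0.000644), Stmn2 at -0.54, Stmn4 at -0.35 and Stmn1 at -0.26. The call of Stmn1 was lost when any library but WT RGC C was left out (adjusted p up to 0.114). Stmn2 is also one of the 11 RGC markers, of which 9 were lower there. In mKO RGCs, where 37.5% of all genes were called in either direction, 11 of 22 genes of tubulin modification were lower and 1 higher. They included Vash1, which removes the last residue of alpha-tubulin, at -0.70 ± 0.05 (adjusted p = 0.000644), Tpgs1, a subunit of a polyglutamylase, at -0.64, Agbl5, a deglutamylase, at -0.38, and Sirt2, a deacetylase, at -0.36, with Agbl3 higher at 0.35. With the GC trend removed, 3 stathmins were called lower, beside 9.41% of all genes. Then 0 of the 22 modification genes were called in limma in either direction, 3 of them at an unadjusted p under 0.05. Vash1 (-1.11), Ttll11 (-1.07) and Agbl5 (-0.66) were lower in mKO non-RGCs too, where 10.6% of all genes were called, with adjusted p from 0.0048 to 0.0235. The Agbl5 call was lost without mKO non-RGC library B or WT non-RGC library A or B (adjusted p up to 0.095), that of Ttll11 without library B of either group (adjusted p up to 0.107), and with the GC trend removed limma called 0 of the 22, with 3 at an unadjusted p under 0.05. Of 8 genes of the gamma-tubulin ring complex, Mzt2 (-0.38) and Tubgcp2 (-0.17) were lower and Tubgcp5 (0.43) higher in mKO RGCs. Of these, Tubgcp2 lost its call when any library but WT RGC C was left out (adjusted p up to 0.143), and with the GC trend removed limma called 0 of the 8, with 0 at an unadjusted p under 0.05. Ttc5, the reader of nascent tubulin, was not called (-0.19).

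Between WT RGCs and non-RGCs 11 of 22 modification genes were higher in RGCs and 1 was lower, beside 27.2% and 23.7% of all genes. Ttll7, a glutamylase of beta-tubulin, was highest at 2.76 ± 0.27 (adjusted p = 3.83e-06), followed among those named by Atat1, the acetyltransferase of alpha-tubulin, and Ttll1, both at 1.09, and Tpgs2 at 1.01, while Ttll4 was lower at -0.75. Stmn4 (1.79), Stmn2 (1.47) and Stmn3 (1.05) were higher and Stmn1 was not called. Of the cofactors 4 were higher and 1 lower. None of the CCT or prefoldin subunits was called (0 of 8 and 0 of 5, with 0 of both at an unadjusted p under 0.05 in limma and 0 calls by limma-voom). Nedd1, which tethers the gamma-tubulin ring complex to centrosomes, was lower in RGCs at -1.06, with Tubgcp3 at -0.38. In mKO 13 modification genes and 3 stathmins were higher in RGCs, beside 29.2% of all genes. However, Stmn3 and Stmn4 each lost the call when mKO non-RGC library A or B or any mKO RGC library was left out (adjusted p up to 0.111 and 0.135).

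Over the 12 libraries, the genes whose level was most like that of Tubb3 among 12780 genes were Cpe, a processing enzyme of neuropeptides (Pearson r = 0.994), Rtn2 (0.989), Zfp580 (0.988), Sh3bgrl3 (0.987) and Thra, a thyroid hormone receptor (0.987). Of the members, Tubb2b was nearest, at rank 29 (0.972), with Tubb2a at rank 281 (0.904), and Tubb5 was at rank 1458 (0.705). For Tubb5 they were the mitochondrial genes mt-Co1 (0.992), mt-Cytb (0.989) and mt-Nd1 (0.987) with Ybx1 (0.990) and Txn1 (0.986), and among members Tuba1b at rank 84 (0.963) and Tuba1a at rank 123 (0.956). These values describe the same 12 libraries, in 4 groups that differ in depth and cell make-up, and carry no test.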

How the data were processed

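The authors selected poly-A RNA, sequenced it single-end for 75 cycles, aligned reads with STAR 2.3.1z4 to mm10, kept primary alignments without duplicates (tool not given in the sources used here), counted them per gene with featureCounts and scaled them with DESeq. The deposited values were group means of scaled counts, a signal that is not whole reads. The deposited fold changes and p-values of the authors' own comparisons were not used, and 0 columns of per-sample values were left out.

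Each library's reads were recovered from the digits of the means, with 1 possible split for every gene with reads, and the recovery was tested on simulated means (3986 of 3986 and 3977 of 3977 split exactly). Values of log2(scaled reads + 1), for genes that averaged 10 or more in one of the compared groups, were fitted with limma 3.58.1 in R 4.3.3 with a mean-variance trend, using the authors' scaling within a table and joint median-of-ratios over 12 libraries between tables. P-values are Benjamini-Hochberg adjusted over all genes tested, called under 0.05. Fold changes on this scale understate those of low genes. On simulated counts for mKO against WT RGC the fit recovered 100 of 100 genes changed 2-fold and 78 of 100 changed 1.5-fold. GENCODE M21 gave lengths, GC content and sequences for 91.9% of genes by symbol. The coding ends of the alpha-tubulins are not reported here. GC and reads-per-base trends were removed per library as alternatives. Python 3.11.15 was used otherwise.

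Named were all members, other measured tubulins, at most 4 called genes per list and comparison by smallest adjusted p, and the 5 genes most correlated with Tubb3 and Tubb5. Thy1, Agbl3, Ttll4 and Ttc5 were named after their values were seen. The members and lists were chosen with earlier results of these data known. Other settings tried were a pseudocount of 0.5, no minimum, a minimum of 50, scaling by total reads or upper quartile, the study's thresholds, limma-voom, and leaving out each library. limma-voom, the joint trend removal and the unshared windows were added after seeing the data.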

Additional observations from a re-analysis of the deposited data

How the results depend on the processing

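No paired analysis was possible because the recovered libraries carry no replicate numbers. Of 880 alternative values for the 10 members, 817 kept their direction and side of the threshold. Not all of them could turn direction, since another minimum, or leaving out a library outside the groups compared, gives the same estimate. Another pseudocount, another minimum, the upper quartile and limma-voom left the 7 calls in mKO RGCs as they were. Scaling by total reads moved the median of all genes to 0.12 in RGCs, 0.15 in non-RGCs, -0.11 between the WT and -0.16 between the mKO fractions, and the share of calls that were higher from 43.5% to 63.3%, from 39.4% to 74.8% and, between the mKO fractions, from 53.2% to 42.6%. The members' median was then -0.42 in RGCs and -0.17 in non-RGCs, with Tuba1c at 0.016 in non-RGCs, Tubb5 at -0.064 between the WT fractions and Tubd1 at -0.062 between the mKO fractions, and 26 genes differed in effect between fractions. Under the upper quartile Tubb5 stood at -0.020 between the WT fractions.

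With the GC trend removed, 2503 genes were called in RGCs, where the main test called 6027, and 324 in non-RGCs, where it called 1626 and where 58.6% were then higher. In RGCs it turned the sign of Tuba4a (0.064), Tuba8 (0.11), Tubg2 (0.078), Tube1 (-0.016), Tpgs1 (0.048), Tubgcp2 (0.086) and Ezh2 (-0.10), in non-RGCs that of Tuba1c (0.083) and Tubg2 (0.035), between the WT fractions that of Tubd1 (0.060) and between the mKO fractions that of Tuba1a (0.055). With GC and reads-per-base trends removed, 1342 genes and 0 of 10 members were called in RGCs, and 271 genes in non-RGCs. In RGCs the values that changed sign were Tubb3 (0.041), Tubb5 (0.041), Tubb4a (0.0021), Tubg2 (0.089), Tube1 (-0.21), Cct5 (0.029), Pfdn1 (0.025), Pfdn5 (0.048), Stmn4 (0.10), Tbcb (0.063), Tpgs1 (0.072), Tubgcp2 (0.16), Tubgcp5 (-0.094) and Vash1 (0.052). In non-RGCs they were Tuba1c (0.012) and Tubg2 (0.052), between the WT fractions Tubb5 (-0.11) and Tubd1 (0.0095), between the mKO fractions Tuba1a (0.079), and for the difference of effects Tubb3 (0.081), Tubb2a (0.0021) and Tubb5 (0.030). Tuba1a between the mKO fractions was also 0.018 under limma-voom. The cause was not tested.

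The study's thresholds called 2615 genes and 3 of 10 members in RGCs and 808 genes for the difference of effects. The Tubb3 share of beta-tubulin depended on the length used. With the longest coding transcript it was 21.2% (mKO RGC), 22.3% (WT RGC), 18.5% (mKO non-RGC) and 19.9% (WT non-RGC), and in the same order without division by length 18.96%, 20.05%, 16.5% and 17.9%, and, per unshared window 17.5%, 18.5%, 15.4% and 16.5%.

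Leaving out 1 library, the genes called ranged from 3770 to 8184 in RGCs, from 141 to 1614 in non-RGCs with 0 to 3 members called, and from 7 to 148 for the difference of effects. Tuba8 in RGCs then ranged from -0.28 to 0.021, and in non-RGCs Tuba1c from -0.33 to 0.050 and Tuba4a from -0.55 to 0.052. Between the WT fractions Tubb5 ranged from -0.064 to 0.12, Tubd1 from -0.17 to 0.11 and Tuba1b from -0.17 to 0.014, and between the mKO fractions Tubb5 from -0.38 to 0.031, Tuba1a from -0.20 to 0.20 and Tubd1 from -0.086 to 0.26. For the difference of effects Tubb3 ranged from -0.32 to 0.035, Tubb2b from -0.42 to 0.018, Tubb5 from -0.39 to 0.012, Tubb6 from -0.37 to 0.031, Tuba1a from -0.37 to 0.021 and Tuba4a from -0.27 to 0.34. The shared 75-base windows can limit the values of Tuba1a, Tuba1b, Tuba1c, Tubb2a and Tubb2b. The loss of duplicate reads can limit those of the most highly expressed genes, and the size of either effect was not tested.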
